A study of Homo sapiens with 4 samples.

Results

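The activin and TGF-beta genes described here are 10 of the 58884 genes in a table of TPM, a level scaled by gene length and by the total of the library. They are the ligand genes INHBA, INHBB, TGFB1 and TGFB2, the antagonist gene FST, the receptor genes TGFBR1, ACVR1B and TGFBR2, the inhibitory SMAD gene SMAD7 and the target gene TGFBI. They were chosen by name, with the level of INHBA in the 2 cell lines already known. Differences between the lines are therefore a description of these genes, with no test. The samples were B-CPAP and TPC-1, established human lines of papillary thyroid carcinoma, a cancer of the hormone-producing follicular cells. Each line gave 1 RNA-seq library from cells held in submerged flasks at 40 °C and 1 from cells held at 37 °C, and the question was how a brief thermal stress alters the transcriptome. The labels disagree on how long the exposure lasted: the treatment field says 24 h, the design text 20 min and the protocol for growth 15 min.

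The 4 libraries were estimated to hold 20704722 to 24466576 reads assigned to genes. Each group held 1 library, so nothing here measures the spread between cultures, and any contrast of the lines is a contrast of these 2 lines alone. Among the thyroid markers, SLC5A5 was listed at 0 in all 4 libraries, and TG and TSHR stayed below 1 TPM in each. NKX2-1 was listed at 0 in both TPC-1 libraries and stood at 7.9 and 8.6 TPM in B-CPAP at 40 and 37 °C. FOXE1 stood at 5.9 and 7.2 TPM in B-CPAP, against 8.0 and 9.7 TPM in TPC-1. HHEX stood at 4.1 and 3.3 TPM in B-CPAP, against 10.3 and 10.4 TPM in TPC-1. The thyroid transcription factor gene PAX8 stood at 98.9 and 112 TPM in B-CPAP at 40 and 37 °C, against 267 and 284 TPM in TPC-1. Leukocyte markers summed to at most 1.52 TPM and endothelial markers to at most 1.77 TPM in any library.

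Activins and TGF-betas are secreted dimers of 1 protein family. A ligand binds a type II receptor kinase, which activates a type I receptor kinase. The type I receptor phosphorylates SMAD2 and SMAD3, which enter the nucleus with SMAD4 and switch target genes on or off. INHBA and INHBB encode the subunits of activin A and activin B, and follistatin, the product of FST, binds activins and keeps them from their receptors. SMAD7 is induced by the pathway and blocks the type I receptors. In normal thyroid follicular cells, TGF-beta and activin restrain growth.

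The start regions of INHBA and SMAD7 are shown because these are the 2 members above 1 TPM that stood higher in both libraries of that line. The sequences are those of RefSeq on GRCh38.p14, from 250 bases before to 50 bases after the start, 5′ to 3′, with matches to the motifs below in capitals. The INHBA window is chr7:41703041-41703340 on the minus strand, and the SMAD7 window is chr18:48949284-48949583 on the minus strand, 1 of 3 RefSeq starts of that gene.
INHBA: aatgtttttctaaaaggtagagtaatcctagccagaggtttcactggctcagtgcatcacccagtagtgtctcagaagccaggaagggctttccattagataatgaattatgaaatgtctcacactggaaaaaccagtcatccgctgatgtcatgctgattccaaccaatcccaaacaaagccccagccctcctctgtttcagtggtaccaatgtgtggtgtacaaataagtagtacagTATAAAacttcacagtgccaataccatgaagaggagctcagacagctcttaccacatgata
SMAD7: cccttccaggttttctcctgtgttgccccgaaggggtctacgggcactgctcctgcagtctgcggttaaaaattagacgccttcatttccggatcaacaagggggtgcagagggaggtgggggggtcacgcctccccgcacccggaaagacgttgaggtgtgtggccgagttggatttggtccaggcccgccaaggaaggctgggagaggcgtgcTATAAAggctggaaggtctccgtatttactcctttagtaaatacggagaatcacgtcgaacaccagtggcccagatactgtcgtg
Both windows hold the letters of a TATA box (TATAAA), from position -11 in INHBA and -35 in SMAD7 relative to the start. The windows at the other SMAD7 starts hold no TATAAA. The GC contents of the windows shown are 43.3 and 57.0%. All 10 genes had RefSeq windows, 21 in all, which were searched on both strands without regard to overlap between motifs. TATAAA was found in 3 of the 21 windows (INHBA, SMAD7, TGFB2) and in 11.5% of all 35116 windows. The AP-1 site TGANTCA was found in 2 (FST, TGFBR2), against 7.71% of all windows. A heat shock element, GAANNTTC or TTCNNGAA, was found in 3 (FST, TGFB2 and another start of SMAD7), against 13.5% of all. The palindromic SMAD site GTCTAGAC was found in 0 of the 21 windows and in 0.202% of all. A match is a run of letters, and no binding was measured.

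INHBA (ENSG00000122641, chromosome 7, 41667168 to 41705834, minus strand, 8302 exon bases) was abundant in B-CPAP and close to absent in TPC-1. Its levels in B-CPAP were 417 TPM (40 °C) and 252 TPM (37 °C), against 1.32 and 1.06 TPM in TPC-1, so the lines did not overlap. These levels rested on 24201 and 15598 estimated reads in B-CPAP and on 63 and 53 in TPC-1. B-CPAP therefore held 317-fold more INHBA at 40 °C (counting interval 248 to 413) and 238-fold more at 37 °C (182 to 319). Here and below the interval is the exact Clopper-Pearson 95% interval of a TPM ratio from estimated reads. It covers counting error only and compares 2 libraries. In B-CPAP at 40 °C INHBA was higher than 98.7% of all protein-coding genes, and in TPC-1 at 40 °C higher than 44.6%. By the log2 difference between the lines it was number 12 of the 11824 protein-coding genes that averaged 1 TPM or more. In bulk RNA such as this, fewer cells that express a gene and less RNA in each cell cannot be told apart.

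The other activin subunit gene of the group, INHBB (ENSG00000163083, chromosome 2), was barely detected. It had 0.223 and 0.334 TPM in B-CPAP at 40 and 37 °C, from 5 and 8 reads, and 0 in both TPC-1 libraries. A count of 0 allows up to 3 reads per library, which in TPC-1 is 0.162 TPM (40 °C) or 0.155 TPM (37 °C). The counting interval of its B-CPAP over TPC-1 ratio began at 0.757 at 40 °C and so included 1, and it began at 1.38 at 37 °C.

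TGFB1 and TGFB2 encode 2 TGF-beta ligands. TGFB1 (ENSG00000105329, chromosome 19) ran the other way from INHBA, at 63.6 and 76.6 TPM in B-CPAP at 40 and 37 °C, against 184 and 237 TPM in TPC-1. The B-CPAP over TPC-1 ratio was 0.346 at 40 °C (interval 0.325 to 0.368) and 0.323 at 37 °C (0.306 to 0.341), and the lines did not overlap. Of its 3238 exon bases, 215 are shared with HNRNPUL1 on the opposite strand. The library kit keeps no strand, so reads there cannot be assigned to either gene. TGFB2 (ENSG00000092969, chromosome 1) stood at 20.9 and 15.0 TPM in B-CPAP, against 16.3 and 13.7 TPM in TPC-1, and the lines overlapped. TPM is scaled by length, so levels of different genes can be set side by side within a library. INHBA exceeded TGFB1 by 6.55-fold in B-CPAP at 40 °C (interval 6.21 to 6.91) and by 3.29-fold at 37 °C (3.13 to 3.45). In TPC-1 the INHBA to TGFB1 ratio was 0.00716 and 0.00447. The TGFB1 to TGFB2 ratio was 3.04 and 5.10 in B-CPAP at 40 and 37 °C, against 11.3 and 17.3 in TPC-1.

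FST (ENSG00000134363, chromosome 5), the follistatin gene, was near the detection limit in every library. It had 0.416 and 0.584 TPM in B-CPAP at 40 and 37 °C, against 0.503 and 0.300 TPM in TPC-1, from 5 to 13 reads. The lines overlapped, and the line ratio had a counting interval of 0.290 to 2.35 at 40 °C and 0.705 to 7.55 at 37 °C. A difference between the lines was not detectable at this depth.

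**Figure D1:**
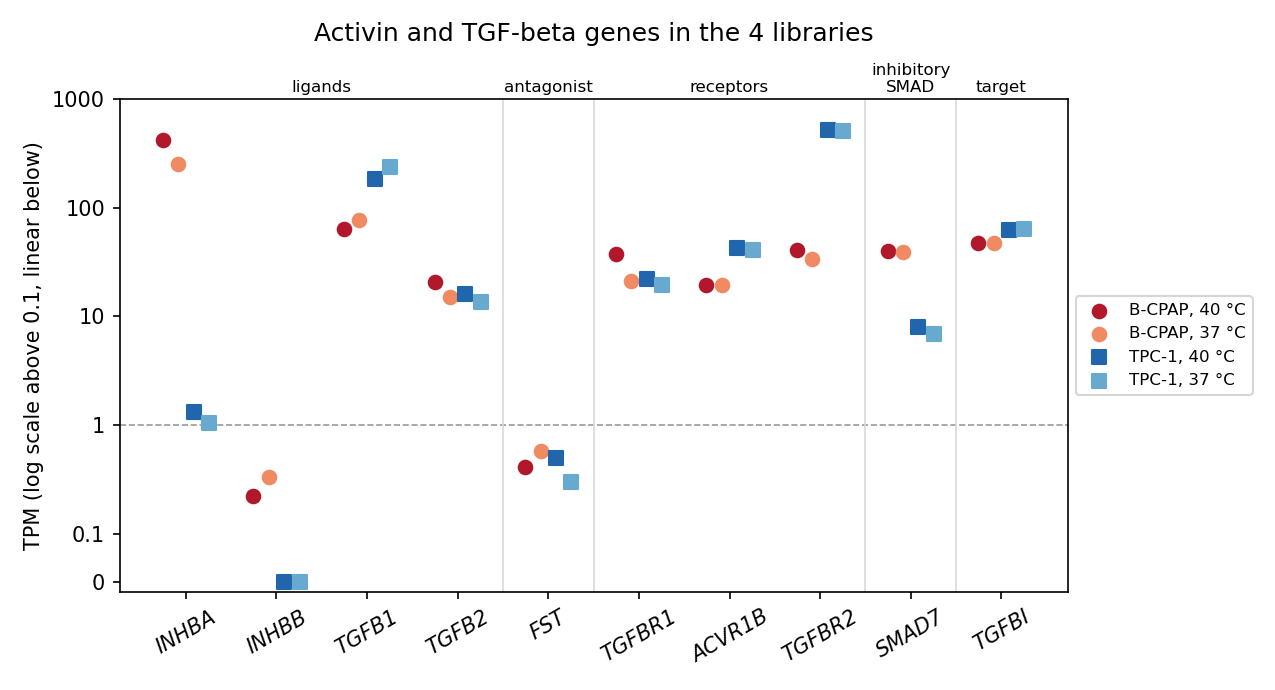
TPM of the 10 genes in each of the 4 libraries, on an axis that is logarithmic above 0.1 TPM and linear below, grouped by role; each point is 1 library and the dashed line is 1 TPM. INHBA and SMAD7 lie higher in both B-CPAP libraries (circles), TGFB1, TGFBR2, ACVR1B and TGFBI higher in both TPC-1 libraries (squares), and INHBB and FST below 1 TPM throughout.

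Among the receptors, TGFBR2 differed most between the lines. TGFBR2 (ENSG00000163513, chromosome 3), the type II receptor for TGF-beta, stood at 40.5 and 33.4 TPM in B-CPAP at 40 and 37 °C, against 516 and 507 TPM in TPC-1. The B-CPAP over TPC-1 ratio was 0.0786 at 40 °C (interval 0.0743 to 0.0832) and 0.0659 at 37 °C (0.0621 to 0.0700), with no overlap of the lines. In TPC-1 at 40 °C TGFBR2 was higher than 98.9% of protein-coding genes. Its type I partner TGFBR1 (ENSG00000106799, chromosome 9) stood at 37.2 and 21.1 TPM in B-CPAP, against 21.9 and 19.3 TPM in TPC-1, and only the B-CPAP library at 40 °C lay apart. The ratio of TGFBR2 to TGFBR1 was 1.09 and 1.58 in B-CPAP at 40 and 37 °C, against 23.6 and 26.3 in TPC-1. ACVR1B (ENSG00000135503, chromosome 12), the type I receptor of activins, stood at 19.7 and 19.3 TPM in B-CPAP, against 42.2 and 40.8 TPM in TPC-1. Its line ratio was 0.466 at 40 °C (interval 0.426 to 0.508) and 0.473 at 37 °C (0.433 to 0.516). This type I receptor gene was thus lower in the line in which INHBA was abundant.

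SMAD7 (ENSG00000101665, chromosome 18) stood at 39.7 and 39.1 TPM in B-CPAP at 40 and 37 °C, against 8.01 and 6.93 TPM in TPC-1. The B-CPAP over TPC-1 ratio was 4.95 (interval 4.31 to 5.71) at 40 °C and 5.64 (4.88 to 6.55) at 37 °C, so all values of B-CPAP lay above those of TPC-1. TGFBI (ENSG00000120708, chromosome 5) encodes a secreted matrix protein first found as a TGF-beta target. It was close to level, at 47.6 and 47.7 TPM in B-CPAP, against 62.3 and 64.2 TPM in TPC-1, with ratios of 0.763 (0.723 to 0.805) at 40 °C and 0.742 (0.705 to 0.782) at 37 °C. SMAD7 and TGFBI, both induced by TGF-beta in many cells, therefore lay on opposite sides between these lines.

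Of the 10 genes, 8 averaged 1 TPM or more over the libraries and entered the fits; INHBB and FST did not. Both B-CPAP libraries lay above both TPC-1 libraries for 2 of the 8 (INHBA and SMAD7), where 35.8% of the 14912 tested genes did so. They lay below for 4 (TGFB1, TGFBR2, ACVR1B and TGFBI), against 39.9% of tested genes. With the further demand of a 2-fold difference at both temperatures, on the log2(TPM + 1) scale, the counts were 2 higher (background 13.4%) and 3 lower, TGFB1, TGFBR2 and ACVR1B (background 14.4%). The genes were chosen on this contrast, so nothing is read from these counts.

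Temperature was not used to choose the genes. In B-CPAP the largest differences were those of TGFBR1 and INHBA, both higher at 40 °C. TGFBR1 had a 40 °C over 37 °C TPM ratio of 1.76 (interval 1.63 to 1.90), and INHBA of 1.65 (1.62 to 1.69). In TPC-1 the ratio of TGFBR1 was 1.14 (1.03 to 1.25), and that of INHBA was 1.24 with an interval of 0.850 to 1.83 that included 1. TGFB2 was higher at 40 °C in both lines, with a ratio of 1.39 (1.25 to 1.56) in B-CPAP and 1.19 (1.04 to 1.36) in TPC-1. TGFB1 was lower at 40 °C in both, with a ratio of 0.831 (0.775 to 0.891) in B-CPAP and 0.777 (0.743 to 0.812) in TPC-1. The 2 TGF-beta ligand genes thus lay on opposite sides of 1 in each line, as the plot of temperature ratios shows.

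**Figure D2:**
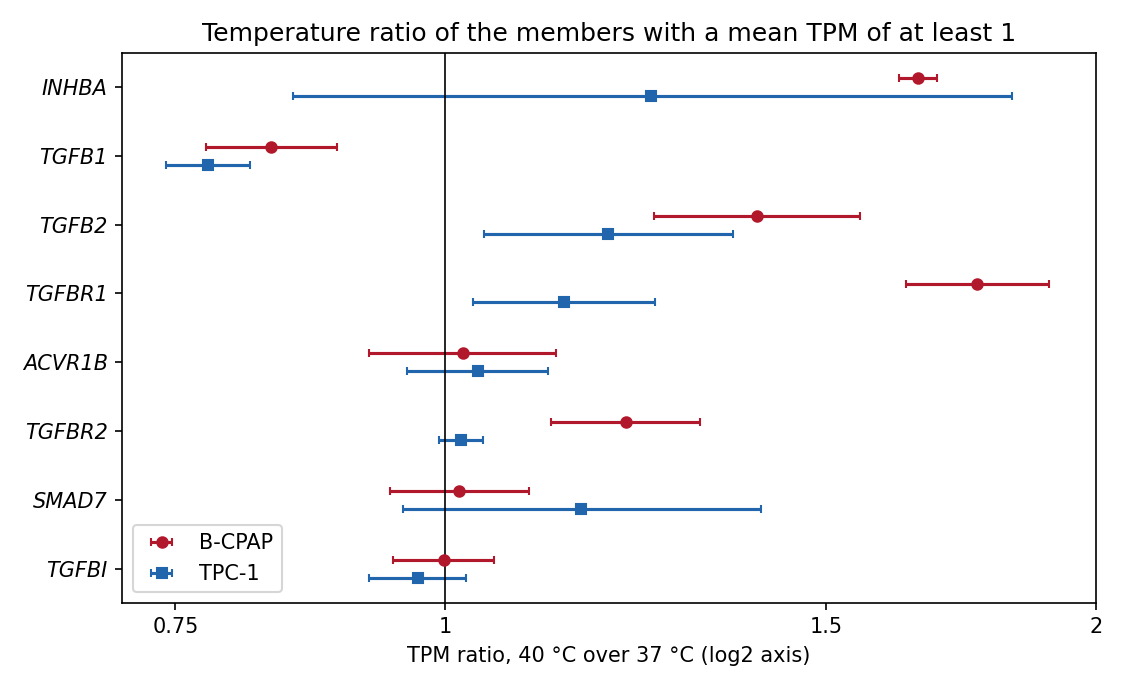
TPM ratio of 40 °C over 37 °C on a log2 axis for the 8 genes that averaged 1 TPM or more, in B-CPAP (red circles) and TPC-1 (blue squares); bars are exact 95% counting intervals for 1 library against 1. TGFBR1, INHBA, TGFB2 and TGFBR2 lie right of 1 in B-CPAP, TGFB1 lies left of 1 in both lines, and the bars of ACVR1B, SMAD7 and TGFBI cross 1.

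TGFBR2 had a ratio of 1.21 (1.12 to 1.31) in B-CPAP and of 1.02 (0.993 to 1.04) in TPC-1. The remaining ratios in B-CPAP and TPC-1 were 1.02 and 1.03 for ACVR1B, 1.02 and 1.16 for SMAD7, and 0.998 and 0.971 for TGFBI, and all of these intervals included 1. In B-CPAP the interval lay above 1 for 4 of the 8 genes, against 36.4% of all tested genes, and below 1 for 1, against 21.8%. In TPC-1 it lay above 1 for 2, against 21.5%, and below 1 for 1, against 16.1%. The level was higher at 40 °C in both lines for 6 of the 8 genes, against 41.6% of all tested genes, and lower in both for TGFB1 and TGFBI, against 27.1%. For INHBB and FST, with at most 13 reads in a library, no temperature difference was detectable. Temperature differences of 1.5-fold or more on the log2(TPM + 1) scale were found for 2 of the 8 genes in B-CPAP, TGFBR1 and INHBA, both higher, where 12.6% of tested genes were that much higher and 2.97% lower. In TPC-1 0 of the 8 reached this size, where 5.40% of tested genes were that much higher and 2.49% lower. Whether a temperature effect differs between the lines could not be tested with 1 library per group.

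Over both lines the comparison of 40 °C with 37 °C used limma on log2(TPM + 1) with the line as a block, 2 libraries per temperature and 1 residual degree of freedom. After Benjamini-Hochberg adjustment limma called 0 of the 8 genes and 0 of the 14912 tested genes (0.0% higher, 0.0% lower). At an unadjusted p under 0.05 limma found 3 of the 8 higher (INHBA, TGFB2 and TGFBR1), against 11.9% of tested genes, and 1 lower (TGFB1), against 7.60%. The log2 difference was 0.48 for TGFBR1 (SE 0.18, limma adjusted p = 0.246), 0.45 for INHBA (SE 0.16, adjusted p = 0.247), 0.34 for TGFB2 (SE 0.13, adjusted p = 0.249) and -0.31 for TGFB1 (SE 0.08, adjusted p = 0.218), each with the same sign in 2 of 2 lines. The median over all tested genes was 0.08, and it became -0.06 when each library was centred on its median. In a fit of protein-coding genes only, limma called INHBA (adjusted p = 0.0478) and TGFBR1 (adjusted p = 0.0417) higher and TGFB1 (adjusted p = 0.0316) lower, where 7.44% of 11824 genes were called higher and 3.97% lower. Among genes averaging 5 TPM or more, limma called TGFB1 alone lower (adjusted p = 0.0436), where 3.55% of 10112 genes were called lower and 5.02% higher. In fits without the block that leave out 1 library, the lines are no longer balanced and the sign turned: INHBA stood at -3.30 without B-CPAP at 40 °C and -3.02 without TPC-1 at 37 °C, and TGFB1 at 0.44 and 0.49.

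The temperature differences ran with the GC content of the transcripts, and those of several of the 8 genes lay close to that trend. Over 11819 protein-coding genes, Spearman's rho of GC content with the log2 difference was -0.82 in B-CPAP and -0.60 in TPC-1; genes of 1 library are not independent. TGFB2 and TGFBR1 have GC contents of 38.9 and 39.7%, and TGFB1 has 61.4%. In B-CPAP the smoothed trend at these GC contents was 0.54 for TGFB2, against its own log2 difference of 0.45, and 0.51 for TGFBR1, against its own 0.79. At the GC content of TGFB1 the trend was -0.26, as was its own difference of -0.26. INHBA, at 45.5% GC, differed by 0.72 in B-CPAP where the trend was 0.26. In TPC-1 the trend was 0.21 for TGFB2 against its own 0.23, 0.20 for TGFBR1 against 0.17, and -0.13 for TGFB1 against -0.36. With the trend taken out, the difference over both lines was 0.27 for INHBA (limma adjusted p = 0.544), 0.22 for SMAD7 (adjusted p = 0.515), 0.13 for TGFBR1 (adjusted p = 0.700), -0.03 for TGFB2 (adjusted p = 0.923) and -0.12 for TGFB1 (adjusted p = 0.640). The part that GC content has in these differences was not tested.

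**Figure D3:**
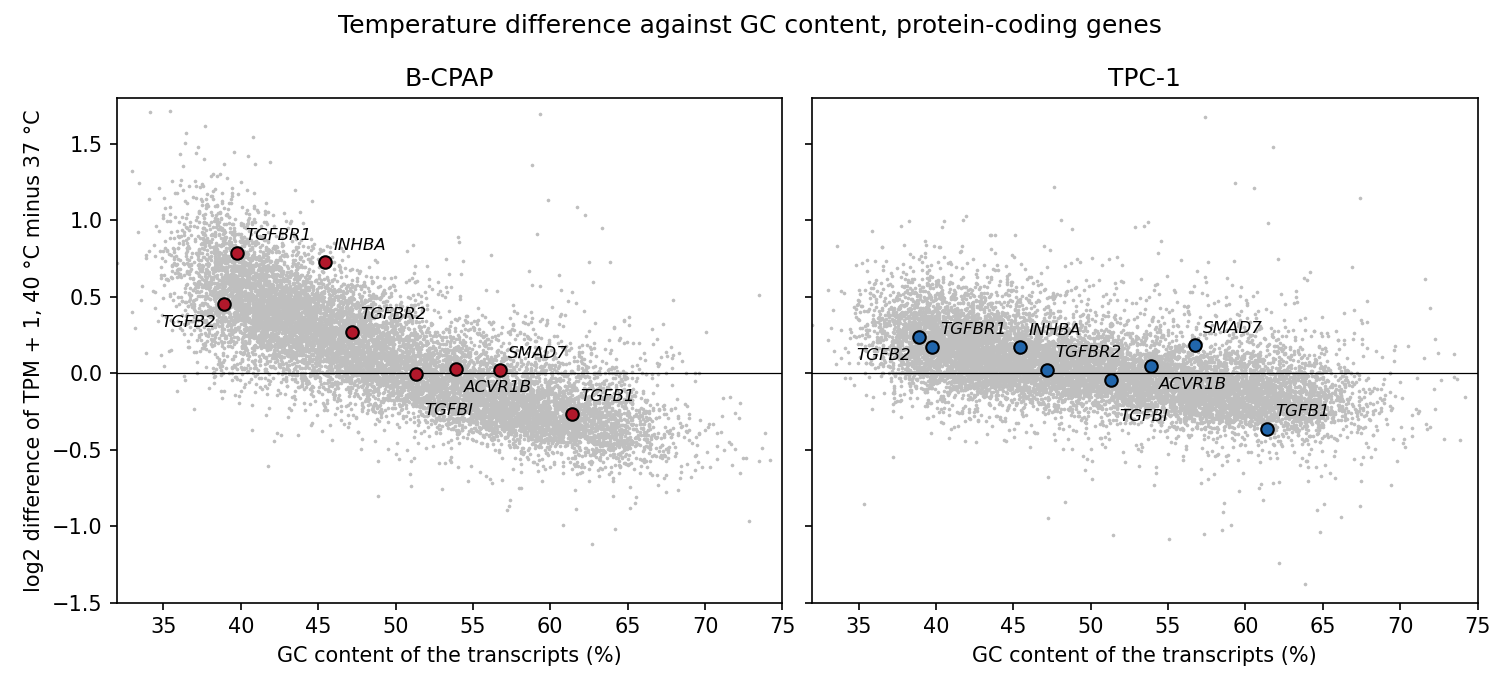
Log2 difference of TPM + 1, 40 °C minus 37 °C, against the GC content of the transcripts for protein-coding genes averaging 1 TPM or more (grey), with the 8 genes marked, in B-CPAP (left) and TPC-1 (right); 2 and 3 genes lie outside the axes. In B-CPAP INHBA lies near the upper edge of the cloud at its GC content, while TGFB2 and TGFB1 lie well within it.

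Beyond the 10 genes, 99 further genes of the pathway were listed by role, and 67 of them averaged 1 TPM or more. For the contrast of lines, limma with temperature as a block called 22 of the 67 higher in B-CPAP (32.8%) and 30 lower (44.8%), where 29.9% of all tested genes were called higher and 32.8% lower. Some of the 67 passed the filter through 1 line alone, so the filter set their direction. The residual spread of this fit is the difference of temperature effects between lines, so its p-values hold no spread between cultures. On simulated data the share of false calls exceeded the threshold of 0.05, so calls in either fit are liberal. The median log2 difference was -0.33 for the 67 genes and -0.05 for all tested genes. Without 1 library and without the block, limma called 12 higher and 14 lower (without TPC-1 at 40 °C), 13 and 15 (without TPC-1 at 37 °C), 17 and 19 (without B-CPAP at 37 °C) or 17 and 21 (without B-CPAP at 40 °C).

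The genes named for latent TGF-beta binding proteins (LTBP) had lower RNA levels in B-CPAP. Of 6 tested genes of TGF-beta ligands and latency proteins, 4 were called lower, all of them LTBP genes, and 1 higher. Of all tested genes 32.8% were called lower and 29.9% higher. LTBP1 passed the filter through TPC-1 alone, at 0.233 and 0.219 TPM in B-CPAP at 40 and 37 °C, so the filter set its direction. LTBP2 stood at 2.94 and 2.97 TPM in B-CPAP at 40 and 37 °C, against 43.5 and 41.1 TPM in TPC-1 (log2 difference -3.45, limma adjusted p = 6.49e-05). LTBP4 stood at 8.04 and 9.9997 TPM in B-CPAP, against 89.9 and 96.7 TPM in TPC-1 (-3.24, adjusted p = 5.59e-05), and LTBP3 at 10.6 and 10.9 TPM, against 49.3 and 52.8 TPM (-2.14, adjusted p = 0.000138). The LTBP genes thus lay on the same side as TGFB1. LRRC32, which holds latent TGF-beta at the cell surface and was chosen after its values were seen, lay on the other side, at 2.50 and 3.34 TPM in B-CPAP, against 0.388 and 0.148 TPM in TPC-1 (1.63). It passed the filter through B-CPAP alone, so the filter set its direction too. Of 5 tested activators of latent TGF-beta, 4 were called lower in B-CPAP and 1 higher, with smaller differences, against the same shares of all tested genes. FURIN, a protease that cleaves the ligand precursors, had a log2 difference of -0.63, the integrin gene ITGAV of -0.60 and THBS1 of -0.35. The gene called higher was the integrin gene ITGB8, chosen after its values were seen, with the largest difference of the 5 (1.21, limma adjusted p = 0.00880). It stood at 4.55 and 2.40 TPM in B-CPAP, against 1.04 and 0.720 TPM in TPC-1.

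Of the genes listed as other ligands of the activin branch 2 were tested, of which GDF15 was lower and GDF11 higher in B-CPAP. GDF15 was listed as a family member, and of the 2 only GDF11 is a ligand of activin receptors. GDF15, a stress-induced cytokine gene that is a distant relative of the TGF-betas, stood at 0.479 and 0.385 TPM in B-CPAP at 40 and 37 °C, against 51.8 and 44.0 TPM in TPC-1 (log2 difference -5.09). It passed the filter through TPC-1 alone, so the filter set its direction. GDF11, a ligand of activin receptors, stood at 24.2 and 24.4 TPM in B-CPAP, against 9.94 and 8.88 TPM in TPC-1 (1.28, limma adjusted p = 0.000881). Of 16 genes of the bone morphogenetic protein (BMP) branch 4 were tested and all 4 were called lower in B-CPAP. These 4 (BMP4, BMP6, BMP8B and AMH) passed the filter through TPC-1 alone, at 0.21 TPM or less in each B-CPAP library. Their direction was thus set by the filter, and nothing is read from this count. BMP4 was listed at 0 and 0.0433 TPM in B-CPAP, against 20.9 and 17.4 TPM in TPC-1. Below the filter, and chosen after their values were seen, GDF6 and BMP5 ran the other way. GDF6 had 1.46 and 1.62 TPM in B-CPAP and BMP5 had 0.432 and 0.304 TPM, and both were listed at 0 in both TPC-1 libraries. Among the activin and inhibin subunit genes, INHBA was the one above 1 TPM, as INHBB, INHA, INHBC and INHBE stayed below 1 TPM in all 4 libraries.

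Antagonist genes other than FST went both ways. Of 8 tested, 4 were called higher in B-CPAP and 3 lower, against 29.9% and 32.8% of all tested genes. FSTL3, a follistatin relative that also binds activins, stood at 108 and 146 TPM in B-CPAP at 40 and 37 °C, against 23.6 and 27.5 TPM in TPC-1 (log2 difference 2.25, limma adjusted p = 0.000103). GREM1, a secreted BMP antagonist, stood at 71.8 and 56.9 TPM in B-CPAP, against 0.0351 and 0.0336 TPM in TPC-1 (5.97). It passed the filter through B-CPAP alone, so the filter set its direction. BAMBI, a decoy receptor gene, was also higher in B-CPAP (2.34, adjusted p = 0.000384). The BMP antagonist gene CHRD was lower there, at 0 and 0.0202 TPM, against 14.8 and 17.8 TPM in TPC-1 (-4.10). CHRD passed the filter through TPC-1 alone, so its direction was set likewise. FSTL1 was lower in B-CPAP (-0.70, adjusted p = 0.00451). The level of FSTL3 was thus above that of FST in all 4 libraries, and it was higher in the line with abundant INHBA.

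Of the receptors outside the 10 genes, 7 were tested. ACVR1 was called higher in B-CPAP (log2 difference 0.54, limma adjusted p = 0.00882) and BMPR1A lower (-1.40, adjusted p = 0.00125). ACVR2B, a type II receptor of activins, was lower too (-0.80, adjusted p = 0.0269, chosen after its values were seen). ACVR2A, another type II receptor of activins and chosen likewise, did not pass (-0.12, adjusted p = 0.682). BMPR2 (-0.48, adjusted p = 0.0625) and the co-receptor gene ENG (-0.08, adjusted p = 0.342) did not pass. Among 7 SMAD genes 2 were called higher and 3 lower, against 29.9% and 32.8% of all tested genes. SMAD3, which carries the TGF-beta and activin signal, stood at 26.2 and 23.2 TPM in B-CPAP at 40 and 37 °C, against 171 and 159 TPM in TPC-1 (-2.69, adjusted p = 5.10e-05). SMAD6, an inhibitory SMAD like SMAD7, was higher in B-CPAP, at 23.9 and 23.1 TPM against 7.26 and 5.89 TPM (1.70, adjusted p = 0.000472). SMAD2, the close relative of SMAD3, did not pass (-0.33, adjusted p = 0.175). SMAD5 was higher (0.58, adjusted p = 0.0123), and SMAD4 (-0.65, adjusted p = 0.0103) and SMAD1 (-0.77, adjusted p = 0.0116) were lower. Of 12 SMAD regulators and co-repressors 2 were called higher and 4 lower, against the same shares of all tested genes. PMEPA1 (1.24) and SMURF1 (0.85) were the 2 higher, and WWP1 was lower at -1.43.

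Genes known as targets of TGF-beta lay on both sides between the lines. B-CPAP was the line with the lower levels of TGFB1, TGFBR2 and SMAD3 and the higher level of INHBA. Of 15 tested targets outside the 10 genes, 8 were called higher in B-CPAP and 5 lower, against 29.9% and 32.8% of all tested genes. TAGLN, a smooth muscle actin-binding protein gene, stood at 80.8 and 106 TPM in B-CPAP at 40 and 37 °C, against 3.14 and 4.90 TPM in TPC-1 (log2 difference 4.24, limma adjusted p = 3.33e-05). CDKN1A, the cell cycle inhibitor gene, ran the other way, at 9.28 and 13.6 TPM in B-CPAP, against 316 and 312 TPM in TPC-1 (-4.69, adjusted p = 4.50e-05). Of the 6 BMP target genes 5 were called higher in B-CPAP and 1 lower, against the same shares of all tested genes. ID3, an inhibitor of differentiation, stood at 749.9 and 947 TPM in B-CPAP, against 72.4 and 89.2 TPM in TPC-1 (3.37, adjusted p = 2.21e-05), and ID1 at 1401 and 1611 TPM, against 349 and 338 TPM (2.13, adjusted p = 6.47e-05). Of 9 fibroblast markers 7 were tested and 6 were called higher in B-CPAP by limma, against 29.9% of all tested genes. COL1A1, which is also a listed target, was among them. COL1A2, COL3A1, LUM, THY1 and FAP passed the filter through B-CPAP alone, at less than 1 TPM in each TPC-1 library. Their direction was thus set by the filter, and nothing is read from this count. PDGFRB lay on the other side, at 4.65 and 4.15 TPM in B-CPAP, against 6.72 and 6.19 TPM in TPC-1. The summed level of the 9 was 351 and 402 TPM in B-CPAP, against 9.91 and 9.42 TPM in TPC-1, of which THY1 made up 301 and 362 TPM in B-CPAP. DCN and PDGFRA stayed below 1 TPM in all 4 libraries. The part of these markers in the result was not tested.

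**Figure D4:**
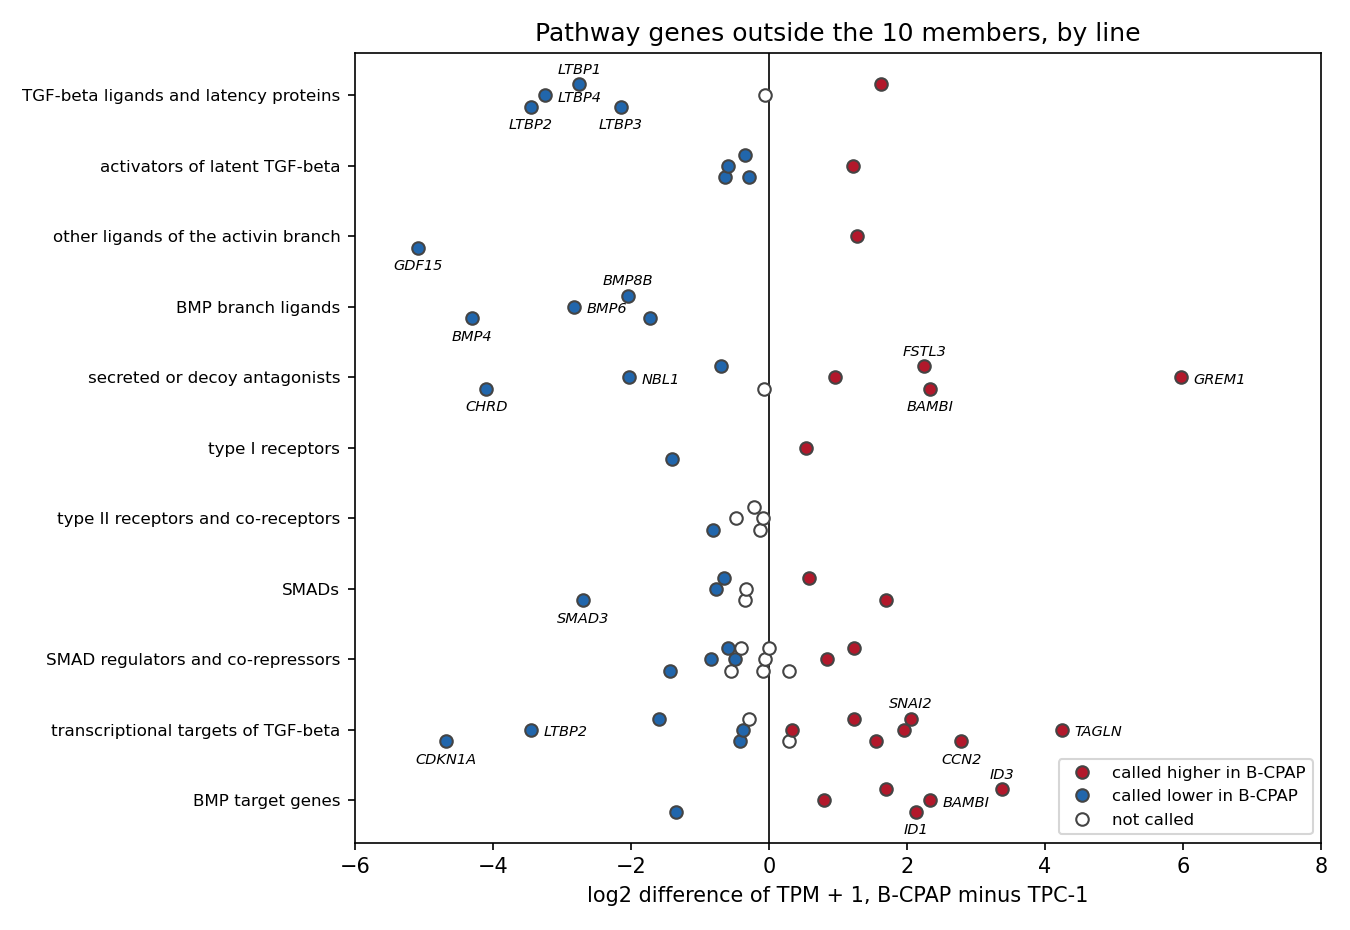
Log2 difference of TPM + 1, B-CPAP minus TPC-1, for 66 of the 67 tested pathway genes outside the 10 members, 1 point per gene in each list that holds it; filled points were called by limma at an adjusted p of 0.05, red for higher and blue for lower in B-CPAP. Genes beyond 2 on the log2 scale are named. Latency proteins lie mostly to the left, as do the BMP ligands, which passed the filter through TPC-1 alone. GDF15, CHRD and LTBP1 also passed through TPC-1 alone, and GREM1 and LRRC32 through B-CPAP alone. TGF-beta and BMP targets lie on both sides, with TAGLN at 4.24 and CDKN1A at -4.69.

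For temperature, limma called 0 of the 67 further pathway genes in either direction, and at an unadjusted p under 0.05 found 9 higher (13.4%) and 5 lower (7.46%), close to the 11.9% and 7.60% of all tested genes. In the fit of protein-coding genes limma called 7 of the 67 higher (10.4%) and 4 lower (5.97%), where 7.44% and 3.97% of all genes were called. Among genes averaging 5 TPM or more it called 4 higher (TWSG1, SKIL, ITGAV and ID2) and 2 lower (ENG and ID3). Of all genes in that fit 5.02% were called higher and 3.55% lower. Pathway genes averaging less than 5 TPM, such as LTBP1 and ITGB8, did not enter it. The median difference was 0.07 for the 67 genes and 0.08 for all tested genes. Among the genes furthest apart, the co-repressor gene SKIL had 11.7 and 5.24 TPM in B-CPAP at 40 and 37 °C, and 7.36 and 5.25 TPM in TPC-1 (log2 difference 0.72, limma adjusted p = 0.220). The BMP modulator gene TWSG1 stood at 37.3 and 19.1 TPM in B-CPAP and at 33.5 and 23.5 TPM in TPC-1 (0.71, adjusted p = 0.218). ITGAV (0.56, adjusted p = 0.236), BMPR2 (0.47, adjusted p = 0.247), WWP1 (0.45, adjusted p = 0.236) and SMAD5 (0.44, adjusted p = 0.222) had values above 0 in both lines. TAGLN (-0.45, adjusted p = 0.218), FSTL3 (-0.33, adjusted p = 0.228) and ID3 (-0.32, adjusted p = 0.218) had values below 0 in both. The 7 SMAD genes had a median of 0.24, and all 7 stood higher at 40 °C in both lines, as did 41.6% of all tested genes. With the GC trend taken out, SMAD1, SMAD2, SMAD4 and SMAD9 lay between -0.0399 (SMAD4) and 0.0133 (SMAD2), while SMAD3 stood at 0.19, SMAD5 at 0.10 and SMAD6 at 0.33.

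The protein-coding genes whose 4 values lay nearest to those of INHBA were LCP1, MT1E, THY1, ACP5 and PEG10, by Euclidean distance of log2(TPM + 1) over the 4 libraries (1.17 to 1.56). LCP1, an actin-bundling protein gene, stood at 265 and 269 TPM in B-CPAP at 40 and 37 °C, against 0.279 and 0.500 TPM in TPC-1. MT1E, a metallothionein gene with near-identical copies whose level is therefore uncertain, stood at 174 and 266 TPM in B-CPAP, against 1.15 and 1.42 TPM in TPC-1. ACP5 stood at 265 and 301 TPM, against 0.0593 and 0.170 TPM. Of the 5, PEG10 was the gene that, like INHBA, stood higher at 40 °C than at 37 °C in B-CPAP, at 207 and 136 TPM, against 0.518 and 0.445 TPM in TPC-1.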

How the data were processed

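RNA of 4 samples was measured by RNA-seq, 1 library for each line and temperature. An RNeasy Plus kit gave the RNA and TruSeq RNA Library Prep Kit v2 the libraries, per the labels' protocols; this kit does not mark strand. Per the submitters' processing notes, FastQC, MultiQC, Trimmomatic 0.38, featureCounts 2.0.0 and GRCh38 were used; for the aligner and the annotation release, no source used here gives a name. The deposited values are TPM, made by the authors, and each column sums to 1000000.

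Gene IDs were joined to GENCODE 29 (58611 of 58884 found) for exon length, coordinates and GC content, and to symbols through a name table. TPM times exon length came in steps, and 90.5 to 92.0% of values up to 20 reads, but 65.7 to 67.6% of those from 20 to 200, were whole within 0.02 of a read. These estimated reads gave depth, floors (3 reads) and 95% intervals, which cover counting error only; no count test was run. Genes averaging 1 TPM or more were fitted with limma 3.58.1 (R 4.3.3), two-sided, with an intensity trend and a pseudocount of 1. Log2 differences and the limits of 1.5-fold and 2-fold are on the log2(TPM + 1) scale, which understates changes of low genes; ratios with an interval are plain TPM ratios. Whether libraries of a line come from separate cultures is not stated. The p-values of both fits rest on how far the temperature difference differs between the lines, and hold no spread between cultures. Both fits were checked by simulation with 200 changed genes; they recovered most of them, with more false calls than the threshold of 0.05 allows.

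The members, pathway lists, motifs and rules were chosen with earlier results of these data known. Named pathway genes were those averaging 5 TPM or more, up to 3 per list by line difference and up to 3 by temperature difference, with the 5 genes nearest to INHBA; some of the listed genes are not reported here. Markers of thyroid, epithelial, fibroblast, leukocyte and endothelial cells were listed too. The 6 epithelial markers summed to 1205 and 1560 TPM in B-CPAP at 40 and 37 °C, against 381 and 457 TPM in TPC-1. Of these sums KRT7 made up 589 and 754 TPM in B-CPAP, against 5.15 and 4.84 TPM in TPC-1. KRT8 was also higher in B-CPAP, KRT18 and KRT19 were lower there, and CDH1 stayed below 1 TPM in all 4 libraries. EPCAM reached at most 1.99 TPM, in B-CPAP at 40 °C. Alternatives covered the pseudocount, filter, scaling, GC content, gene set, trend, block and left-out libraries. A planned comparison of protein sequences was not made here.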

Additional observations from a re-analysis of the deposited data

How the results depend on the processing

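With 1 library per line and temperature, the only pairing available was by line or by temperature, which the reported fits used as a block. For temperature over both lines, limma called 0 genes in either direction as reported. It called 1 higher and 1 lower at a pseudocount of 5, 27 and 22 after median centring, 508 and 359 at a mean TPM of at least 5, and 880 and 470 among protein-coding genes. Of the 8 genes, 0 were called as reported, 1 lower at a mean TPM of at least 5, and 2 higher and 1 lower among protein-coding genes; fewer genes entered these fits. Over the 12 settings that keep all libraries, adjusted p ran from 0.0478 to 1 for INHBA, 0.0417 to 1 for TGFBR1 and 0.0316 to 1 for TGFB1. After the GC adjustment TGFB2 turned to -0.0326 over both lines and to -0.0876 in B-CPAP, and TGFBR1 to -0.0228 in TPC-1. ACVR1B turned to -0.10 after median centring and -0.0302 after quantile normalization, SMAD7 to -0.0364 after median centring, and TGFBI to 0.0219 without mitochondrially encoded genes. Leaving out 1 library in the fit without the block mixes the lines unequally, by construction. The temperature difference then ran from -3.30 to 4.19 for INHBA, -1.12 to 0.49 for TGFB1, -0.23 to 0.19 for TGFBI, -1.79 to 2.09 for TGFBR2, -0.50 to 0.57 for ACVR1B, 0.11 to 0.85 for TGFBR1 (0.48 as reported), 0.17 to 0.52 for TGFB2 (0.34 as reported) and -1.07 to 1.27 for SMAD7. For the lines, leaving out 1 library gave 1400 to 2536 genes higher (4457 as reported) and 1511 to 3183 lower (4892), and 12 to 17 pathway genes higher (22) and 14 to 21 lower (30). No line difference of the 8 genes turned its sign in any alternative. Depth limits INHBB and FST, and INHBA in TPC-1.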
